A study of Mus musculus with 12 samples.

Results

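The HoxA cluster is a row of homeobox genes on mouse chromosome 6, and 9 of its genes were followed here at 4 time points of a mouse embryonic stem (ES) cell culture. The members were the rows named Hoxa2, Hoxa3, Hoxa4, Hoxa5, Hoxa6, Hoxa7, Hoxa9, Hoxa10 and Hoxa11 among the 55335 genes of the count table, taken by symbol and not by their values. The table held 11 protein-coding HoxA genes, and the HoxA genes at either end of the cluster were not analysed here. The 12 libraries of polyadenylated RNA came from an ES cell line labelled only mESC, with 3 libraries at each of days 0, 2, 4 and 6. All libraries share 1 growth description: gelatin-coated dishes with irradiated mouse embryonic fibroblasts as feeders, and a medium that held serum replacement and leukaemia inhibitory factor. No genotype or agent is given for any day, nor any change of culture after day 0. Whether the 3 libraries of a day came from separate cultures is not stated either, and the spread behind the p-values may therefore be technical.

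Hox genes encode transcription factors that give cells along the head-to-tail axis their regional identity. Genes of low paralog number act toward the head and are the first to be switched on, and genes of high number act further back and later, in the order in which they lie on the chromosome. In ES cells the clusters are held silent by Polycomb proteins, retinoic acid is a well-known inducer of the low-numbered genes, and CTCF sites divide the HoxA cluster into domains. The PBX and MEIS proteins of the TALE class bind DNA together with HOX proteins.

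In GENCODE release M21 (GRCm38) the 9 genes lie on the minus strand between base 52162417, the end of Hoxa2, and base 52245810, the start of Hoxa11. Their starts follow one another in paralog order except for Hoxa3, whose annotated gene extends 48.51 kb upstream of the start of Hoxa2 and spans Hoxa4, Hoxa5 and Hoxa6. Hoxa5, Hoxa6 and Hoxa10 share no exon base with another gene. Shared bases made up 15.0% of the exon length of Hoxa2, 27.1% of Hoxa3, 16.0% of Hoxa4, 20.4% of Hoxa7, 1.5% of Hoxa9 and 35.0% of Hoxa11. For Hoxa4, Hoxa7 and Hoxa11 the partner runs on the opposite strand, Hoxa3 has 4 such partners and 1 on its own strand, and since no source used here states whether counting used strand, reads from those stretches cannot be told apart.

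Totals ran from 6945900 to 13266962 counts per library. The 9 genes together held 475 counts at day 0, 5161 at day 2, 3785 at day 4 and 3841 at day 6, and all 9 passed the filter on low counts. The ES cell identity of the culture was checked with 8 marker genes, and Pou5f1, Sox2 and Nanog had mean levels of 1468, 716 and 276 CPM (counts per 1e+06 counts, scaled by trimmed means) at day 0. All 8 markers fell against day 0 at each later day, where 33.2%, 36.1% and 37.5% of all genes tested fell at days 2, 4 and 6. Summed over the 8 genes, their level was 5503 CPM at day 0, 1885 at day 2, 1028 at day 4 and 838 at day 6.

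Of the 9 HoxA genes, 8 rose by day 2 and stood above day 0 at days 4 and 6 as well, and Hoxa11 alone did not pass the test at any day. The median log2 fold change of the 9 genes was 2.85 at day 2, 2.60 at day 4 and 2.50 at day 6 against day 0, where the median of all genes tested was 0.02, 0.01 and 0.02. Genes called higher by edgeR's quasi-likelihood test (Benjamini-Hochberg adjusted p under 0.05) made up 34.9% of the 16468 genes tested at day 2, 37.5% at day 4 and 39.4% at day 6, and genes called lower 33.2%, 36.1% and 37.5%. With libraries scaled by their totals alone, 7053 genes were higher and 4412 lower at day 2, in place of 5743 and 5473. A call by itself says little where 68.1%, 73.6% and 76.9% of all genes were called in either direction at those days. All 8 had fitted rises of more than 2-fold at each day, against 11.9% of all genes at day 2, 16.5% at day 4 and 18.3% at day 6. In each of these 8 genes the libraries of day 2, of day 4 and of day 6 lay wholly above those of day 0, where 70.7%, 75.2% and 78.3% of all genes tested had libraries that did not overlap. More cells with active HoxA genes and more RNA per cell cannot be told apart in these bulk libraries.

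Windows of 250 bases before the annotated starts of Hoxa2, Hoxa5 and Hoxa11 are shown because these are the lowest-numbered gene, the gene with the highest level after day 0 and the gene that passed no test. They are RefSeq promoters on GRCm38.p6, minus strand, at chr6:52164832-52165081 for Hoxa2, chr6:52204588-52204837 for Hoxa5 and chr6:52245811-52246060 for Hoxa11. Each is written 5′ to 3′ and ends at the base before the start, and capitals mark matches to the motifs searched.
Hoxa2: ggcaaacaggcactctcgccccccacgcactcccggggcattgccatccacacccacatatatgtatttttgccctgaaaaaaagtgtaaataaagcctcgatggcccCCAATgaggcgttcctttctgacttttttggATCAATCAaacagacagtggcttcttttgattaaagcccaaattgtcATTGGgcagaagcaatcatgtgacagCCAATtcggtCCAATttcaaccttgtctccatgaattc
Hoxa5: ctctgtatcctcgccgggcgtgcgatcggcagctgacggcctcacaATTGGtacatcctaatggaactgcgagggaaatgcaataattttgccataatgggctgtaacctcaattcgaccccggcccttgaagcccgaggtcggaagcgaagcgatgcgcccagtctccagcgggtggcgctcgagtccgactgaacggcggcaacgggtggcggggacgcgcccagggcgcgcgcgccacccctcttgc
Hoxa11: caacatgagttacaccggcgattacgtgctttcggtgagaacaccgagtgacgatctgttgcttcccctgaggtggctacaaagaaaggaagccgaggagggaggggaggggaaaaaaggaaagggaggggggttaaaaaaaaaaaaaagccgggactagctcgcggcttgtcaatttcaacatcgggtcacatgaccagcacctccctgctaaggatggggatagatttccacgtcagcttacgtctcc
The capitals of Hoxa2 are 4 matches to CCAAT and 1 to TGATNNAT, a form of the site that PBX and HOX proteins bind together. The Hoxa5 window has 1 CCAAT match and the Hoxa11 window has none of the motifs.

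Promoter windows were at hand for 8 of the 9 genes, with 2 for Hoxa10, and 6 motifs were searched on both strands. CCAAT was in 4 of the 9 windows, against 33.8% of the 32817 promoters of all genes. TTTATG, a form of the site of Cdx proteins, was found in the Hoxa7 window (10.8% of all promoters), TGATNNAT in that of Hoxa2 (7.69%) and TATAAA in 1 of those of Hoxa10 (12.4%). AGGTCA, the core motif bound by retinoid receptors, was in none of the 9 (14% of all). Its direct repeat with 5 bases between the copies, which contains it, was in none either (0.00914% of all). No match says only that these letters are absent from these windows. CpG pairs were 1.11 times as frequent as base composition gives in the Hoxa5 window, the highest of the 9, and 8 of the 9 lay above the median of 0.37 of all promoters.

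Hoxa2, which patterns the hindbrain and the second branchial arch, was among the lowest members at day 0 and reached its highest mean at day 4. Its level was 0.678, 0.394 and 0.506 CPM at day 0, 5.23, 5.63 and 6.55 at day 2, 7.94, 8.93 and 8.09 at day 4, and 7.78, 7.67 and 9.04 at day 6. No library of a later day came near those of day 0, and the libraries of days 4 and 6 lay above all of day 2. The fitted rise over day 0 was 10.6-fold at day 2 (log2 3.40 ± 0.28 SE, adjusted p = 8.42e-14 by edgeR), 15.3-fold at day 4 and 14.9-fold at day 6. With counts thinned to the smallest library it was 16.4-fold at day 2 and 22.7-fold at day 6.

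For Hoxa3, needed for the thymus, the parathyroid and other organs of the neck, values were 1.58, 2.49 and 1.01 CPM at day 0, 18.3, 20.3 and 18.5 at day 2, 18.7, 16.8 and 16.6 at day 4, and 22.8, 23.2 and 18.1 at day 6. The step to day 2 carried most of the change, and the 9 libraries of the later days covered a narrow range beside it. Hoxa3 stood 11.2-fold above day 0 at day 2 (log2 3.49 ± 0.18, adjusted p = 8.23e-20 by edgeR), 10.3-fold at day 4 and 12.7-fold at day 6. Per exon length it was among the lowest members at day 0, with 0.282 ± 0.124 RPKM (CPM per kilobase of exon; SD, n = 3).

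Hoxa4, a gene of the neck region of the spine, had 0.904, 1.44 and 1.01 CPM at day 0, 7.35, 7.56 and 9.37 at day 2, 6.68, 5.57 and 8.23 at day 4, and 6.21, 6.16 and 6.62 at day 6. It was highest at day 2, and the libraries of day 6 lay below those of day 2. The fitted rise over day 0 was smaller than for its neighbours on either side, at 7.19-fold (log2 2.85 ± 0.23, adjusted p = 7.42e-14 by edgeR) at day 2, 5.97-fold at day 4 and 5.65-fold at day 6.

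Hoxa5, which acts in lung, trachea and the spine at the neck and chest, had the largest rise at day 2 and the highest level of the 9 genes from then on. Its values were 1.81, 1.58 and 1.52 CPM at day 0, 50.7, 45.7 and 51.8 at day 2, 42.3, 41.1 and 46.3 at day 4, and 32.2, 34.0 and 32.1 at day 6. The day 6 libraries lay below every library of days 2 and 4 and remained far above day 0. The rise over day 0 was 29.9-fold at day 2 (log2 4.90 ± 0.13, adjusted p = 2.68e-29 by edgeR), 26.0-fold at day 4 and 19.8-fold at day 6.

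Hoxa6, its neighbour of the central group, rested on few reads at day 0, with 1, 3 and 0 counts in the 3 libraries. In CPM it had 0.113, 0.394 and 0 at day 0, 2.42, 1.77 and 2.64 at day 2, 4.65, 3.94 and 4.68 at day 4, and 3.37, 4.64 and 2.73 at day 6. Day 4 lay wholly above day 2. The fitted rise was 12.9-fold at day 2 (log2 3.69 ± 0.51, adjusted p = 4.6e-08 by edgeR), 25.0-fold at day 4 and 20.2-fold at day 6. Those sizes depend on 1 library, since without day 0 replicate 2, which leaves a single count at day 0, the fitted rises were 31.7-fold, 61.3-fold and 49.6-fold.

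Hoxa7, a gene of the central group also known from blood-forming cells, was the most abundant member before the change, and its fold rise was modest. It had 6.78, 7.88 and 8.61 CPM at day 0, 28.0, 29.8 and 30.6 at day 2, 27.3, 32.9 and 33.6 at day 4, and 24.3, 25.7 and 23.5 at day 6. Every later library was above day 0, and day 6 was below both day 2 and day 4. The rise was 3.81-fold at day 2 (log2 1.93 ± 0.11, adjusted p = 1.26e-18 by edgeR), 4.02-fold at day 4 and 3.17-fold at day 6.

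Hoxa9, a regulator of blood stem cells and a driver of leukaemia, averaged 17.0, 17.0 and 15.6 CPM at days 2, 4 and 6. Its values were 2.94, 3.02 and 2.40 CPM at day 0, 17.9, 17.3 and 15.7 at day 2, 17.2, 16.7 and 17.0 at day 4, and 15.3, 16.3 and 15.2 at day 6. All later libraries lay well above day 0. The rise was 6.07-fold at days 2 and 4 and 5.56-fold at day 6 (day 2: log2 2.60 ± 0.14, adjusted p = 4.65e-19 by edgeR). None of its comparisons among days 2, 4 and 6 passed the test.

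Hoxa10, which acts in the uterus and the lower back, rose the least of the 8. It had 2.83, 2.76 and 3.04 CPM at day 0, 7.81, 8.36 and 11 at day 2, 8.23, 7.30 and 6.81 at day 4, and 5.61, 6.59 and 6.83 at day 6. The libraries of day 6 lay below those of day 2, and all later libraries stayed clear of day 0. The rise was 3.12-fold at day 2 (log2 1.64 ± 0.18, adjusted p = 2.38e-10 by edgeR), 2.61-fold at day 4 and 2.18-fold at day 6.

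Hoxa11, a gene of the forearm, kidney and uterus, had 1.24, 0.788 and 0.886 CPM at day 0, 0.985, 1.13 and 1.09 at day 2, 0.774, 0.961 and 1.42 at day 4, and 1.05, 1.40 and 0.526 at day 6. The 4 days overlapped throughout, on 24, 39, 28 and 32 counts in all. The log2 change at day 2 against day 0 was 0.11, with a 95% interval of -0.66 to 0.88, and the edgeR F-test over the 4 days gave an adjusted p of 0.99. Changes within that interval could not be detected at this depth, and its upper end lies below the fitted rise of every other member at day 2. The other 8 genes passed the F-test, as did 89.2% of all genes tested.

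**Figure D1:**
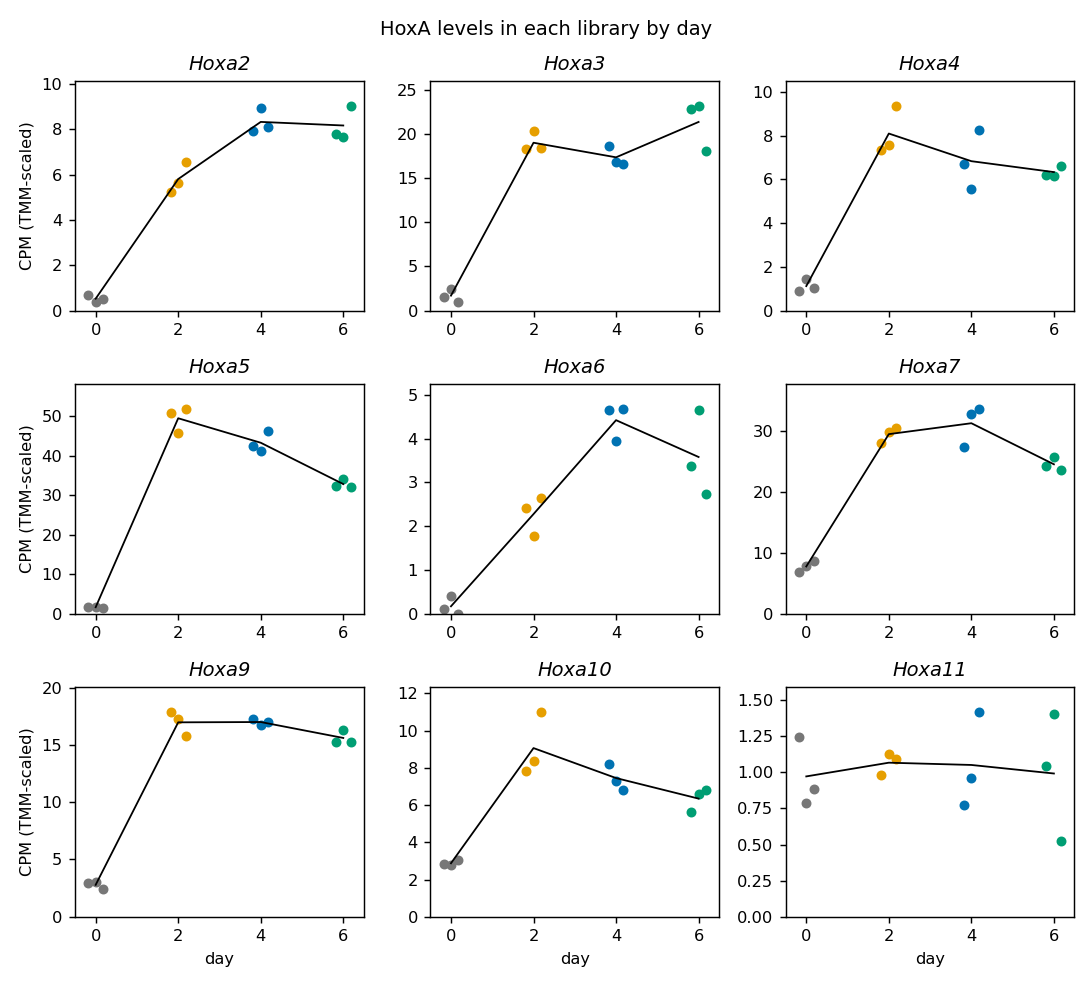
Level of each HoxA gene in each library (points, TMM-scaled CPM) by day, with a line through the means of 3 libraries and a scale of its own for each gene. In 8 panels the day 0 points lie below all later points, and in the Hoxa11 panel the 4 days overlap.

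By paralog number, the fitted fold changes of the lower-numbered genes at day 2 lay above those of the higher-numbered genes, without a clear gap. Hoxa2, Hoxa3, Hoxa4, Hoxa5 and Hoxa6 rose between 7.19-fold and 29.9-fold, and Hoxa7, Hoxa9 and Hoxa10 between 3.12-fold and 6.07-fold, with Hoxa11 at 1.08-fold and no call. Hoxa4 and Hoxa9, on either side of the border, were not clearly apart at day 2, with log2 2.85 ± 0.23 and 2.60 ± 0.14 (SE). The division by paralog number was chosen after the values were seen and has no test. It did not hold at day 4, where Hoxa4 (5.97-fold) stood just below Hoxa9 (6.07-fold), and at day 6 their values were 5.65-fold and 5.56-fold. Fold change did not follow the number step by step: Hoxa5 and not Hoxa2 rose most at day 2, and Hoxa9 rose more than Hoxa7 at all 3 days. All 8 genes had changed by the first day sampled after day 0, so any order in time before day 2 was not measured.

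**Figure D2:**
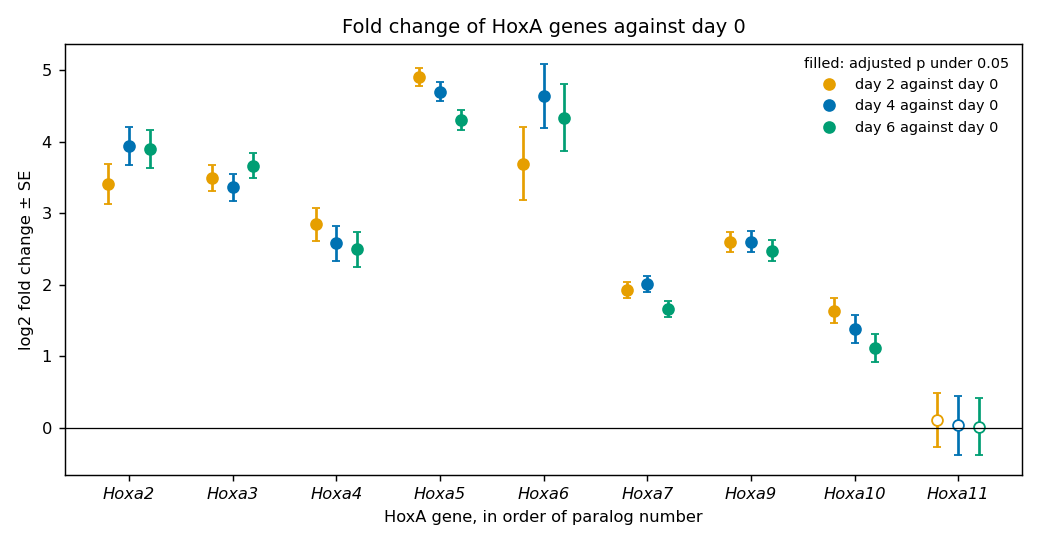
Fitted log2 fold change of each HoxA gene at days 2, 4 and 6 against day 0, in order of paralog number, with bars for the SE. Filled points passed adjusted p under 0.05; values lie near 5 for Hoxa5 at day 2 and near 0 for Hoxa11 at every day.

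Per exon length, the order of the genes changed between day 0 and day 2. At day 0 Hoxa7 led with 2.70 ± 0.32 RPKM (SD, n = 3), above and apart from Hoxa10 (0.879), Hoxa5 (0.871) and Hoxa4 (0.703), whose libraries overlapped one another. From day 2 on Hoxa5 led, with 26.3 ± 1.7 RPKM at day 2, 23.0 ± 1.4 at day 4 and 17.5 ± 0.58 at day 6, and Hoxa7 came second with 10.2 ± 0.45, 10.9 ± 1.2 and 8.53 ± 0.38. Neither overlapped its neighbours in the order at those days. Hoxa11 was last at all 3 later days, at 0.467, 0.460 and 0.434 RPKM, and overlapped no other gene. In between, at day 2, Hoxa2, Hoxa3, Hoxa9, Hoxa10 and Hoxa6 ran from 3.27 down to 2.61 RPKM and each overlapped the next.

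Summed over the 9 genes, the level was 6.84 ± 0.39 RPKM at day 0, 57.0 ± 3.3 at day 2, 56.6 ± 2.9 at day 4 and 47.4 ± 2.3 at day 6. Hoxa5 made up 12.8 ± 1.6% of that sum at day 0 and 46.2 ± 1.7%, 40.7 ± 0.62% and 36.9 ± 0.56% at days 2, 4 and 6. Hoxa7 made up 39.4 ± 5.0% at day 0 and 18 ± 0.97%, 19.2 ± 1.8% and 18 ± 0.17% later. Hoxa2 to Hoxa6 together held 28.6 to 38.8% of the sum in the libraries of day 0 and 68.9 to 72% in those of days 2, 4 and 6. This grouping was chosen after the values were seen and has no test. Within it Hoxa5 gained most. Hoxa2, Hoxa3 and Hoxa6 held 4.38%, 4.07% and 2.71% at day 0 and 5.73%, 5.57% and 4.55% at day 2. Hoxa4 held 10.2% at day 0 and 8.89% at day 2.

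**Figure D3:**
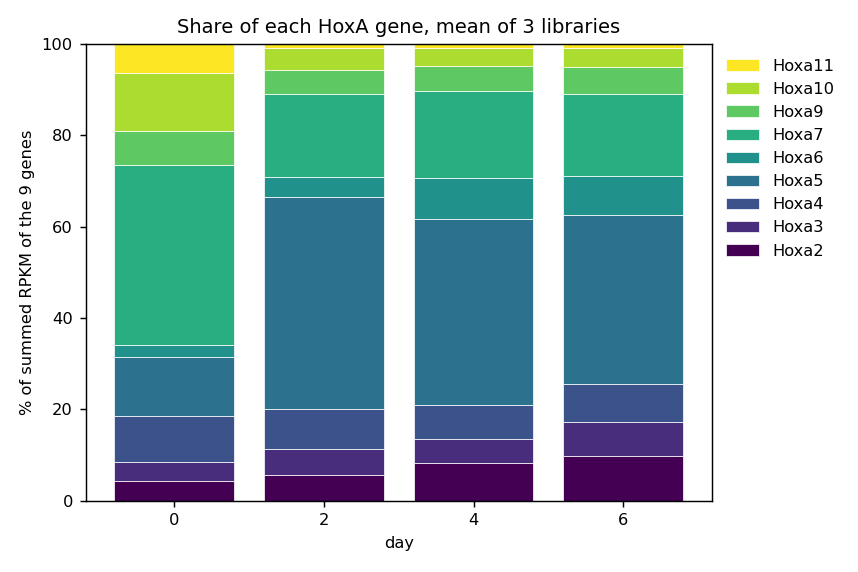
Share of each HoxA gene in the summed RPKM of the 9 genes at each day (bars to 100%, means of 3 libraries). Hoxa7 takes the largest share at day 0, at 39.4%, and Hoxa5 at days 2, 4 and 6, at 46.2%, 40.7% and 36.9%.

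After day 2 the members moved in different directions, with calls about as frequent as among all genes or less so. At day 4 against day 2, Hoxa2 and Hoxa6 rose, Hoxa5 fell and 6 genes did not pass the test, so that 3 of 9 were called where 50.1% of all genes were, 25.3% upward and 24.8% downward. Hoxa2 averaged 8.32 ± 0.54 CPM at day 4 and 5.80 ± 0.68 CPM at day 2 (log2 0.53 ± 0.14 SE, adjusted p = 0.00172 by edgeR), and Hoxa6 averaged 4.42 ± 0.42 CPM at day 4 and 2.28 ± 0.45 CPM at day 2 (log2 0.95 ± 0.23, adjusted p = 0.000614). Those were the 2 members whose libraries did not overlap, and 55.7% of all genes did not. Hoxa5 averaged 43.2 ± 2.7 CPM at day 4 and 49.4 ± 3.2 at day 2 (log2 -0.20 ± 0.07, adjusted p = 0.0101), with overlapping libraries. Its call was lost by DESeq2 (adjusted p = 0.105), without day 2 replicate 3 (0.052) and without day 4 replicate 2 (0.0711).

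At day 6 against day 4, Hoxa3 rose, Hoxa5 and Hoxa7 fell, and 42.9% of all genes were called, 23.6% upward and 19.3% downward. Hoxa5 averaged 32.8 ± 1.1 CPM at day 6 and 43.2 ± 2.7 at day 4 (log2 -0.39 ± 0.07, adjusted p = 1.62e-05 by edgeR), and Hoxa7 averaged 24.5 ± 1.1 CPM at day 6 and 31.3 ± 3.5 CPM at day 4 (log2 -0.34 ± 0.08, adjusted p = 0.000942). These and Hoxa9 had libraries that did not overlap, and so did 50.7% of all genes. Hoxa3 averaged 21.4 ± 2.9 CPM at day 6 and 17.4 ± 1.1 at day 4 (log2 0.30 ± 0.10, adjusted p = 0.0168), and the libraries overlapped because day 6 replicate 3 was low. That call was lost by DESeq2 (adjusted p = 0.111), with counts thinned to the smallest library (0.11), and without day 4 replicate 2 (0.0729) or 3 (0.0525) or day 6 replicate 1 (0.108) or 2 (0.0777).

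Across the whole span after the first step, day 6 against day 2, Hoxa2 and Hoxa6 were higher and Hoxa4, Hoxa5, Hoxa7 and Hoxa10 lower, with 63.6% of all genes called, 32.4% upward and 31.2% downward. Hoxa5 had the largest fall, by 0.59 ± 0.07 on the log2 scale (adjusted p = 4.76e-10 by edgeR). Hoxa10 averaged 6.34 ± 0.65 CPM at day 6 and 9.06 ± 1.7 at day 2 (log2 -0.52 ± 0.14, adjusted p = 0.00155), and Hoxa7 differed by -0.26 ± 0.08 (adjusted p = 0.00446). For the rises, Hoxa2 gave 0.49 ± 0.14 (adjusted p = 0.00192) and Hoxa6 0.65 ± 0.23 (adjusted p = 0.0146). These 6 genes had libraries that did not overlap, like 66.6% of all genes. Hoxa4 (log2 -0.35 ± 0.14, adjusted p = 0.0336) and Hoxa6 were the less secure calls. By DESeq2 their adjusted p-values were 0.194 and 0.0959. For Hoxa4 the call also ended with thinned counts (0.201) and without day 2 replicate 3 (0.186) or day 6 replicate 1 (0.0954) or 2 (0.0756), and for Hoxa6 without day 2 replicate 2 (0.102) or day 6 replicate 2 (0.128).

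**Figure D4:**
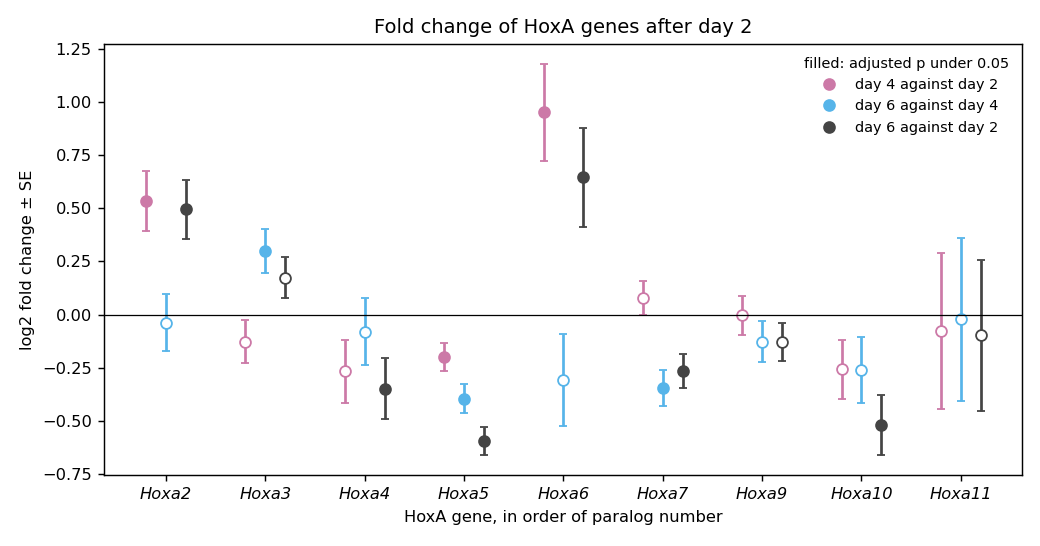
Fitted log2 fold change of each HoxA gene at day 4 against day 2, day 6 against day 4 and day 6 against day 2, with bars for the SE; filled points passed adjusted p under 0.05. Hoxa2 and Hoxa6 lie above 0 in day 6 against day 2, and Hoxa4, Hoxa5, Hoxa7 and Hoxa10 below it.

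Likeness between profiles was measured as the root mean square difference of the 4 day means of log2 CPM, each profile centred on its own mean, and it carries no test. Among the members the closest pair was Hoxa4 and Hoxa9 (0.097), followed by Hoxa2 and Hoxa6 (0.147), which are not neighbours on the chromosome. The farthest was Hoxa5 from Hoxa11 (1.93). The log2 CPM used a prior count of 2, which shrinks changes that start from few counts. Hoxa6 had 4 counts in all at day 0, so its closeness to Hoxa2 depends in part on that setting. Among 13463 other genes, the nearest to Hoxa5 was another Hox gene, Hoxb4 (0.162), with 1.96, 52.2, 46.4 and 27.8 CPM at days 0, 2, 4 and 6. Those nearest to Hoxa2 and Hoxa4 were Fat3 (0.028) and Ttc6 (0.034). For Hoxa3, Hoxa6 and Hoxa7 they were Crmp1 (0.097), Il33 (0.105) and Dnah11 (0.038), and for Hoxa9, Hoxa10 and Hoxa11 they were Zfp62 (0.052), Hpse (0.051) and Zfp189 (0.0057).

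The other Hox genes of the same paralog groups rose as well. Of 21 in the HoxB, HoxC and HoxD clusters, 18 were tested, and 16, 18 and 18 were higher at days 2, 4 and 6 against day 0, with none lower. Among all genes tested, 34.9%, 37.5% and 39.4% were higher at those days. Hoxc11, Hoxd10 and Hoxd11 had too few counts to be tested. At days 0, 2, 4 and 6, Hoxd10 had 13, 6, 0 and 4 counts, Hoxc11 had 2, 2, 0 and 10, and Hoxd11 had 4, 12, 9 and 12. All 8 HoxB genes were called at each day, and their median log2 change, with genes at 3 or fewer counts at day 0 entered at their bound or count ratio, was 8.19 at day 2, where that of the HoxA genes was 2.85. All comparisons with day 0 share the same 3 libraries, and no test of the difference between clusters was made.

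In group 2, Hoxb2 had 2185 counts at day 2 and 3 counts at day 0, a ratio of 484 (95% counting interval 166 to 2351), where Hoxa2 rose 10.6-fold. In group 5, Hoxb5 had no count at day 0 and was at least 175-fold higher at day 2, with the 3 libraries of day 0 together set at a floor of 3 counts, where Hoxa5 rose 29.9-fold. In group 6, Hoxb6 had 4845 counts at day 2 and 3 at day 0, a ratio of 1074 (367 to 5211), where Hoxa6 rose 12.9-fold. At day 0 Hoxb2 had a mean of 0.113 CPM and Hoxa2 of 0.526 CPM. In group 9, Hoxb9 changed by 4.18 on the log2 scale, Hoxa9 by 2.60 and Hoxc9 by 3.69, while Hoxd9 changed by 0.05 and did not pass the test (adjusted p = 0.913 by edgeR). In group 10, Hoxc10 rose by 0.67 and Hoxa10 by 1.64.

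Relatives also moved in different directions after day 2. Over all genes tested, 32.4% rose and 31.2% fell at day 6 against day 2. At day 6 against day 2 the HoxB genes Hoxb2, Hoxb4, Hoxb5, Hoxb6, Hoxb8 and Hoxb9 fell and Hoxb3 and Hoxb7 rose, and all 4 tested HoxD genes rose. In group 5 all 3 clusters fell, with log2 changes of -0.59 for Hoxa5, -0.92 for Hoxb5 and -0.54 for Hoxc5. In group 6 they did not agree, since Hoxa6 and Hoxc6 rose by 0.65 and 1.49 and Hoxb6 fell by 1.59. In group 2, Hoxa2 rose by 0.49 and Hoxb2 fell by 1.59.

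**Figure D5:**
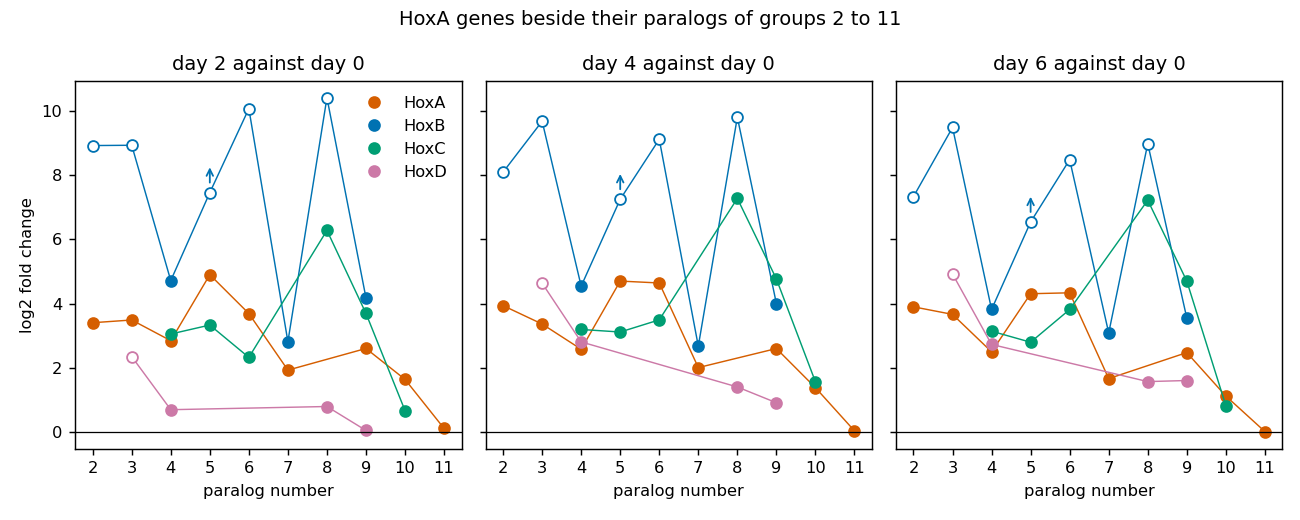
Log2 fold change against day 0 at days 2, 4 and 6 for the tested Hox genes of groups 2 to 11, by paralog number and cluster. Open circles are count ratios of genes with 3 or fewer counts at day 0, the arrow marks a lower bound for Hoxb5, and HoxA values lie between 0 and 5 where several HoxB values exceed 8.

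Of 5 tested noncoding RNAs listed for the HoxA region, 4 rose and 1 fell at day 2 against day 0. At day 4, 3 rose and 1 fell, and at day 6, 3 rose and 2 fell. Among all genes tested, 34.9%, 37.5% and 39.4% rose at those days and 33.2%, 36.1% and 37.5% fell. Hotairm1, the antisense RNA that starts at the low-numbered end, averaged 1.51 ± 0.16 CPM at day 0, 28.9 ± 2.4 at day 2, 24.8 ± 0.55 at day 4 and 27.8 ± 0.47 at day 6, and rose by 4.24 ± 0.15 at day 2 (log2, adjusted p = 1.61e-25 by edgeR). Hoxaas2 and Hoxaas3, which overlap exons of Hoxa3, had 2 counts each at day 0 and reached ratios of 40.9 (11.1 to 342) and 22.0 (5.84 to 185) at day 2. Unlike most coding members, both went on rising to day 6, by 0.87 and 1.07 on the log2 scale against day 2 (adjusted p = 6.98e-05 and 7.86e-05). Gm28308, which shares exon bases and strand with Hoxa2 and Hoxa3, rose by 3.22 at day 2 (adjusted p = 9.88e-12).

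Opposite Hoxa11, the antisense gene Hoxa11os had 1.54 ± 0.71 CPM at day 2 and 2.66 ± 0.66 at day 0 (log2 -0.82 ± 0.29, adjusted p = 0.0131 by edgeR), with overlapping libraries. Its log2 fold change against day 0 was -0.28 at day 4, which did not pass the test (adjusted p = 0.374), and it fell by 0.69 at day 6 (adjusted p = 0.0326), where the libraries did not overlap. Halr1, a long noncoding RNA beside the cluster at its low-numbered end, averaged 41.0, 62.3, 24.9 and 19.4 CPM at days 0, 2, 4 and 6. It rose at day 2 (0.60 ± 0.07) and fell below day 0 at days 4 and 6 (-0.73 and -1.07). Hottip, at the high-numbered end, had at most 1 count at any day and was not tested. The coding genes nearby did not share the members' rise. Of 8 tested, 4 rose and 2 fell at day 2, with a median of 0.31 and none above 0.72. At day 6 only Jazf1 was higher (10 counts at day 0) and 5 were lower. Over all genes tested, 34.9% rose and 33.2% fell at day 2, and 39.4% rose and 37.5% fell at day 6. The neighbour Evx1 had 5 counts at day 0, none at days 2 and 4 and 1 at day 6.

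Genes that act with or upstream of HOX proteins changed over the same days. Over all genes tested, 34.9%, 37.5% and 39.4% rose and 33.2%, 36.1% and 37.5% fell at days 2, 4 and 6 against day 0. Of the 9 TALE genes, 7 rose and 2 fell at each of these days. Meis1 averaged 39.6 CPM at day 2 and 3.49 at day 0, Meis2 152 CPM at day 2 and 21.5 at day 0, and Pbx2 96.3 CPM at day 2 and 33.4 at day 0. Pbx4 and Pknox1 were the genes that fell. Of 16 tested retinoid and Cdx genes, 9 rose and 4 fell at day 2. Cyp26a1 and Cyp26b1, which break down retinoic acid and are induced by it, had 728 and 161 CPM at day 2, against 1.81 and 0.751 CPM at day 0. Rarb, a retinoic acid receptor gene that is itself a target, had 64.6 CPM at day 2 and 0.675 at day 0, and Dhrs3 had 79.4 CPM at day 2 and 4.38 at day 0. Rara, Rarg, Crabp1 and Cdx1 fell. These genes are named as background for the cluster, and their part in its rise was not tested.

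Chromatin regulators had medians nearer to 0, and their counts stand beside 34.9% of all genes rising and 33.2% falling at day 2. Of 15 Polycomb genes, 6 rose and 9 fell at day 2, with a median of -0.20. Jarid2, Suz12 and Mtf2, partners of the PRC2 methyltransferase, fell by 1.49, 1.02 and 1.03 at day 6. On the Trithorax side 3 of 11 rose and 7 fell at day 2, and of 7 boundary genes 3 rose, Ctcf among them by 0.21, and 2 fell (Smc1a and Smc3).

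Markers of other cell types moved over the same days. Hox genes are also expressed in embryonic fibroblasts, which the culture contained as irradiated feeders. The sum of 14 fibroblast markers was 94.8 to 95.2 CPM in the libraries of day 0, 96.4 to 104 at day 2, 116 to 128 at day 4 and 313 to 342 at day 6, where 11 of the 13 tested were higher than at day 0. At day 2 against day 0, 4 of the 13 rose and 5 fell. Among all genes tested, 34.9%, 37.5% and 39.4% rose at days 2, 4 and 6, and 33.2% fell at day 2. Col1a2, Fbn1 and Loxl1 rose, with 12.9, 36.3 and 9.34 CPM at day 2, against 1.88, 16.3 and 3.81 at day 0. Twist2 rose on 10 counts at day 2 and 1 at day 0. Col1a1, Col5a1, Thy1, Pdgfrb and Mmp2 fell, and Mmp2 had 18.3 CPM at day 2 and 29.6 at day 0. Lum and Dcn had at most 4 counts at each of days 0 and 2. The 10 endoderm markers all rose against day 0 at each day, and their sum was 434 CPM at day 0 and 1768, 3704 and 4692 CPM at days 2, 4 and 6. Sparc alone held 313, 1053, 2674 and 3822 CPM of these sums at days 0, 2, 4 and 6. At day 6 against day 4, 7 of the 10 rose and 3 fell, as did 23.6% and 19.3% of all genes tested. Sums were 81.1, 79.0, 101 and 112 CPM for 6 neural markers and 50.3, 130, 166 and 198 CPM for 9 mesoderm markers. Of these, 3 neural genes rose and 1 fell at day 2, and 5 mesoderm genes rose and 2 fell. Pdgfra alone held 34.0, 106, 126 and 142 CPM of the mesoderm sums at days 0, 2, 4 and 6. The part of these markers' cell types in the HoxA result was not tested.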

How the data were processed

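For each of the 12 libraries the authors deposited a raw count of every gene, checked here to be whole numbers. The submitters' processing notes name the build mm10 and the tools featureCounts 2.0.1, HISAT2 2.1.0, FastQC 0.11.7 and DESeq2, and no step is tied to any of them. Annotation, multi-mapping and strandedness are not given in the sources used here.

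Low counts were filtered with filterByExpr of edgeR 4.0.16 (R 4.3.3), which left 16468 genes, and TMM scaled the libraries. All 12 libraries entered 1 robust quasi-likelihood fit, in which each day had its own coefficient. Tests were two-sided, and p-values were Benjamini-Hochberg adjusted over all of these genes in each of 6 comparisons. The SE came from the F statistic. CPM use TMM-scaled libraries, and RPKM divides them by the exon length of GENCODE M21. Intervals on count ratios cover counting error only. Between replicates the chi-square per degree of freedom ran from 1.51 to 3.80, and 0 pairs of libraries were identical.

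Members and lists were chosen with earlier results of these data known. All members are named, with up to 4 genes of each list by smallest F-test p and, for the other Hox genes, relatives of members; further genes were chosen after their values were seen. Some genes that the rule named are not reported here. Alternatives used limma 3.58.1 and DESeq2 1.42.0. The procedure was tested on simulated data.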

Additional observations from a re-analysis of the deposited data

How the results depend on the processing

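The count of HoxA genes called was 8 against day 0 under all 23 alternatives at each of days 2, 4 and 6, and 8 in the 22 that gave an F-test over the 4 days. It was 2 to 4 for day 4 against day 2 (3 as reported), 2 to 3 for day 6 against day 4 (3) and 4 to 7 for day 6 against day 2 (6). Over all members, alternatives and comparisons, 1210 values kept their call or its absence, 21 lost the call, 3 gained one and 0 called values changed sign. Some values called in neither setting did change sign, such as Hoxa11 at day 4 against day 0 (-0.18 to 0.26, 0.037 as reported). Scaling by library size alone raised the log2 values of all genes tested by a median of 0.13, 0.13 and 0.10 at days 2, 4 and 6 against day 0. Under it Rad21 at day 2 gave 0.13 (-0.00 as reported) and Tax1bp1 at day 4 gave 0.020 (-0.11). Hoxa11 was called under none, with values from -0.24 to 0.34 against day 0, and was dropped by the filter in 1 or 2 of them. Deviations of same-numbered libraries of different days had correlations from -0.0875 to 0.105. The highest, for replicate 2 of days 4 and 6, was just over the limit of 0.1 set beforehand. Differently numbered libraries were not compared, so this check cannot settle whether the numbers mark a pairing. The fit used no replicate block. With a replicate block 8 HoxA genes were called at each of days 2, 4 and 6 against day 0, and 3, 3 and 6 for day 4 against day 2, day 6 against day 4 and day 6 against day 2. Low counts of Hoxa6 and Hoxa2 at day 0 and of Hoxa11 at all days limit their fold changes.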
